A study of Mus musculus with 14 samples.

Results

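Calcium enters a cell through pores in the plasma membrane, and 10 genes of this entry machinery were followed in mouse haematopoietic stem cells (HSCs) sorted by calcium level. They were chosen by name: the TRP family channels Trpc6, Trpm7 and Trpv2, the store-operated pore subunits Orai1 and Orai2, the store sensors Stim1 and Stim2, the ATP-gated channels P2rx1 and P2rx4, and Cacnb2, an auxiliary subunit of voltage-gated channels. All 10 were found among 48714 gene labels shared by the libraries, and all 10 were among the 9921 labels with a mean of at least 1 RPKM (reads scaled to gene length and library total), which were the labels tested. Only P2rx1 was listed under more than one label, and P2rx1_1, the copy with the higher mean, stands for it below.

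The HSCs came from the bone marrow of C57BL/6 mice and were sorted as [Ca2+]high (calcium-high) or [Ca2+]low (calcium-low), with 7 libraries numbered 1 to 7 in each group. Each library was made from the total RNA of 100 sorted cells. No treatment, genotype or age is named in the labels. They do not say whether libraries came from separate animals, so the p-values measure the spread between these samples. Beyond the difference in Y-linked reads given below, that spread may be technical. The title of the series concerns dormant and active HSCs and the part of cytoplasmic calcium in dormancy, and the comparison asks here which entry genes differ with the calcium level.

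In store-operated entry, STIM proteins in the membrane of the endoplasmic reticulum sense the loss of stored calcium and open ORAI pores at the cell surface. Most TRP channels, and P2X receptors, let calcium in together with other cations. TRPC6 does so after receptors make diacylglycerol, and P2X receptors when ATP binds outside the cell. Voltage-gated channels consist of a pore-forming alpha1 subunit and auxiliary subunits, of which the beta subunits bring the pore to the membrane. In bulk RNA of sorted cells, fewer cells that carry a transcript and less of it per cell cannot be told apart.

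The libraries fell into a pair of sets. Replicates 1 to 3 had 3575282 to 7387840 reads in listed genes, while replicates 4 to 7 had 8280756 to 10296347. Y-linked genes divided the libraries otherwise, with 1298 to 1638 reads in replicates 1 and 2 of both groups against 0 to 4 in all others. Replicates 1 and 2 thus held cells of male mice, and not all libraries came from the same animals. The 8 long-term HSC markers examined all had a mean of at least 1 RPKM, and their summed level was 117 to 191 RPKM in calcium-high libraries and 115 to 176 RPKM in calcium-low ones. Calcium-low replicate 3 stood apart, with summed neutrophil markers at 766 RPKM (others of its group, 1.58 to 27.7 RPKM), cycling markers at 199 RPKM (6.58 to 22.6 RPKM) and erythroid markers at 147 RPKM. Calcium-high replicate 3 had the highest erythroid sum of its group, 78.8 RPKM. Other calcium-high libraries stood out as well. Monocyte and macrophage markers summed to 188 RPKM in replicate 5 and 155 RPKM in replicate 6 (others of the group, 43.2 to 66.4 RPKM). In calcium-low that sum was 55.0 to 82.7 RPKM. Over the 14 libraries Lyz2 had a mean of 70.0 RPKM, and no other marker of that list had a mean above 3.23 RPKM. On average the sum was thus mostly Lyz2. Neutrophil markers summed to 39.9 RPKM in calcium-high replicate 5 and 77.3 RPKM in replicate 7 (others of the group, 1.28 to 7.78 RPKM). For Trpc6, results are given with and without the libraries numbered 3.

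All 10 genes were expressed in every library, and 8 of them lay within a narrow band of levels. Averaged over the 14 libraries, Trpc6 was highest at 9.30 RPKM ± 2.36 (SD, n = 14), above 80.3% of the tested labels. P2rx1_1 followed at 6.61 ± 2.12 RPKM, Trpm7 at 6.39 ± 2.54, Orai2 at 5.91 ± 1.25, P2rx4 at 5.71 ± 1.30, Stim1 at 5.65 ± 0.609, Trpv2 at 4.96 ± 1.23 and Orai1 at 4.56 ± 1.06. The 2 lowest were Cacnb2 at 1.85 ± 0.443 RPKM and Stim2 at 1.03 ± 0.239 RPKM.

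**Figure D1:**
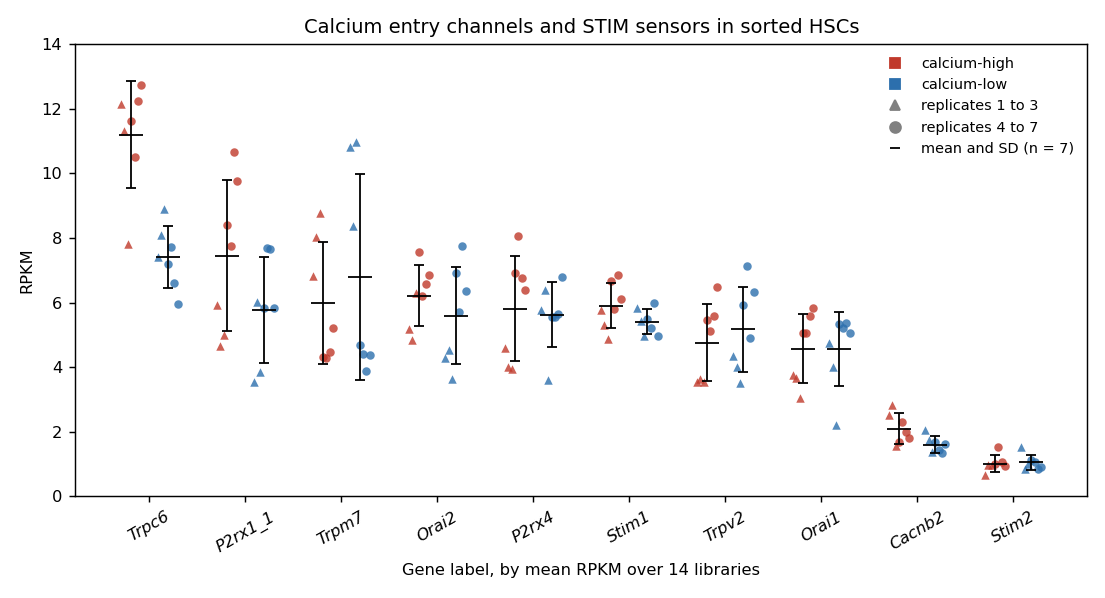
Levels of the 10 genes in every library, in RPKM, with calcium-high and calcium-low libraries and both library sets marked. Cacnb2 and Stim2 lie below the other 8 genes in every library, and the spread of Trpm7 runs from 3.89 to 11.0 RPKM.

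Most neighbours in that order did not keep it from library to library. Trpc6 lay above P2rx1_1 in 13 of 14 libraries, but was the first of the 10 in only 8, since Trpm7 was first in 4, and Orai2 and P2rx4 in 1 each. P2rx1_1 lay above Trpm7 in 8 libraries, Trpm7 above Orai2 in 6, Orai2 above P2rx4 in 9, P2rx4 above Stim1 in 7, Stim1 above Trpv2 in 10 and Trpv2 above Orai1 in 9. Genes further apart in the order did keep it more often: Orai2, P2rx1_1 and Stim1 each lay above Orai1 in 13 of 14 libraries, and P2rx4 did in all 14. Orai1 above Cacnb2 and Cacnb2 above Stim2 were the neighbours that kept one order in all 14 libraries.

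Among all pore-forming channels listed as entry channels, 13 had a mean of at least 1 RPKM, and 7 of these belong to the named set. Calcium flow through them was not measured. Trpc6 was first here as well. Orai3, the remaining ORAI pore subunit, was second at 7.72 ± 2.10 RPKM, above Orai2 and Orai1, and Tmem63a, a mechanosensitive channel of the OSCA/TMEM63 family, was the third at 7.22 ± 0.805 RPKM. Piezo1, the mechanically gated channel, stood at 6.38 ± 1.53 RPKM, next to Trpm7.

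**Figure D2:**
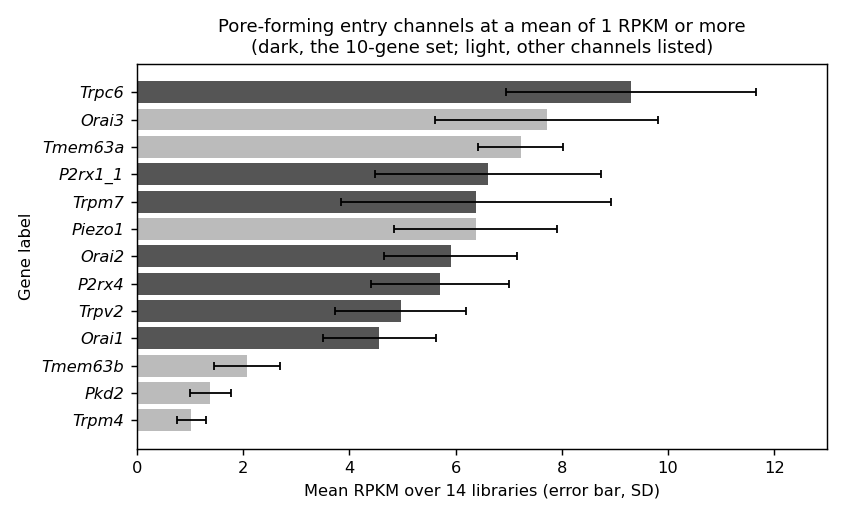
Mean RPKM over 14 libraries of the 13 pore-forming channels listed as entry channels at 1 RPKM or more (error bars, SD). The named set is dark and other channels are light. Trpc6 leads at 9.30 RPKM, and the 9 channels after it range from 7.72 RPKM for Orai3 to 4.56 RPKM for Orai1.

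Trpc6 (chromosome 9, 8544142 to 8680741, plus strand, GRCm38) had the largest difference between the groups among the 10 genes. In calcium-high replicates 1 to 7 it stood at 12.1, 11.3, 7.80, 11.6, 10.5, 12.2 and 12.7 RPKM. In calcium-low replicates 1 to 7 it stood at 7.41, 8.10, 8.91, 7.18, 7.71, 6.61 and 5.97 RPKM. These values rest on 564 to 2354 reads per library. Of the 7 calcium-high libraries, 6 therefore lay above every calcium-low library, and the groups overlapped through calcium-high replicate 3 alone. Paired by replicate number, Trpc6 was higher in calcium-high in 6 of 7 pairs, the exception being replicate 3, and 9.14% of tested labels were higher in at least 6 pairs.

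The means of Trpc6 were 11.2 ± 1.66 RPKM in calcium-high against 7.41 ± 0.965 in calcium-low (SD, n = 7 each). On the log2(RPKM + 1) scale the difference was 0.53 (SE 0.116, 95% interval 0.29 to 0.78). This did not pass an adjusted p under 0.05 over all tested labels, either in limma without a block (adjusted p = 0.125) or in limma with the replicate number as a block (adjusted p = 0.0653). It passed in 8 of 36 alternative settings, over which limma's adjusted p ranged from 0.000138 to 0.448 and the difference from 0.30 to 0.72, positive in all 36. These differences are not all on one scale, since limma-voom and other pseudocounts are among the settings. Without calcium-high replicate 3 the adjusted p in limma was 0.00631, without calcium-low replicate 3, the library with the high neutrophil and cycling markers, it was 0.0608, and without both it was 0.00287. The library whose removal brought the call is thus the one through which the groups overlapped.

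The call also differed between the library sets. In replicates 4 to 7 alone the log2 difference of Trpc6 was 0.70 (adjusted p = 0.00123, limma), and in replicates 1 to 3 alone it was 0.30 (adjusted p = 0.448, limma). The median of all tested labels was 0.11 and -0.20 in those fits, so that relative to it Trpc6 stood at 0.59 and 0.50. Whether the sets differed for Trpc6 was not tested. In limma-voom on whole reads recovered from the RPKM values, with library quality weights, the difference was 0.72 (adjusted p = 0.000138). Replicates 1 to 3 had weights of 0.190 to 0.933, while those of replicates 4 to 7 were 0.815 to 2.61, so that this fit gave most libraries of the deeper set more weight. With the replicate block the weights were 0.556 to 2.04 in the first set, highest in replicate 2, and 0.711 to 1.48 in the second, and the difference was 0.68 (adjusted p = 0.00063).

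Markers of stem cells and of other cells were set beside Trpc6. The summed long-term HSC markers were higher in calcium-high in 6 of 7 pairs. On average that sum was mostly Kit and Hlf, with means of 67.3 and 43.8 RPKM over all libraries. Of the 8 markers, 7 had a higher mean in calcium-high. Limma called 0 of the 8 without the block and 3 with it, against 0% and 0.917% of tested labels. The summed megakaryocyte and platelet markers were 14.9 to 32.5 RPKM in calcium-high against 16.1 to 33.9 in calcium-low, and higher in calcium-high in 2 of 7 pairs. The summed erythroid markers were 16.1 to 78.8 RPKM in calcium-high and 8.47 to 147 RPKM in calcium-low. Like Trpc6, they were higher in calcium-high in 6 of 7 pairs, with replicate 3 the exception (78.8 against 147 RPKM). In pair 2 the erythroid sums were nearly equal, at 16.090 RPKM in calcium-high against 16.088 RPKM in calcium-low. Of the 5 T and NK cell markers, Cd3e, Cd3g and Ncr1 were at 0 in all libraries and Cd3d had a mean of 0.0553 RPKM, so that their sum was nearly that of Nkg7, a granule protein gene of cytotoxic cells. Nkg7 had 9.74 ± 4.88 RPKM in calcium-high against 19.7 ± 7.16 in calcium-low (SD, n = 7 each), lower in calcium-high in all 7 pairs. The part of these markers in the Trpc6 difference was not tested.

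**Figure D3:**
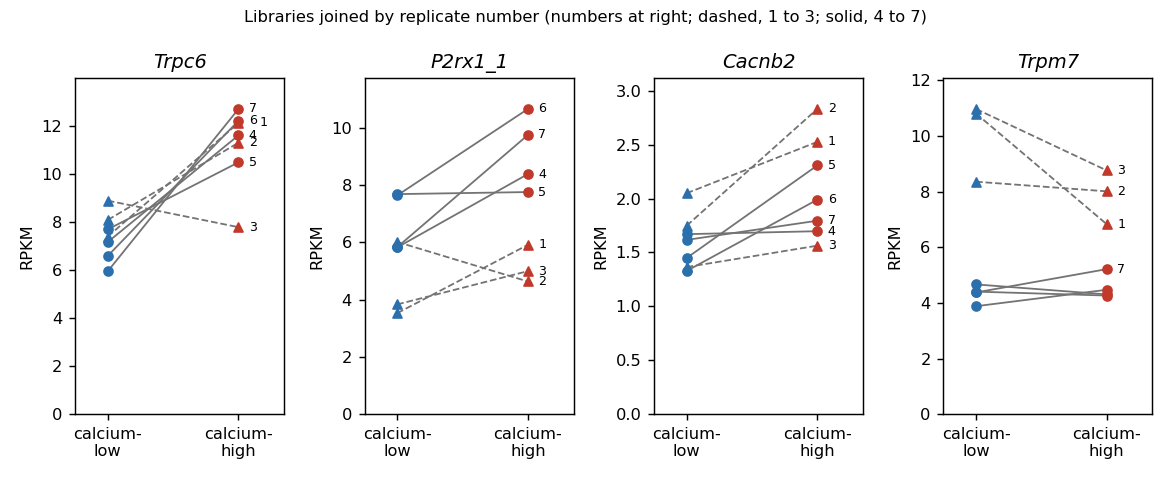
RPKM of Trpc6, P2rx1_1, Cacnb2 and Trpm7 in calcium-low and calcium-high libraries joined by replicate number (dashed lines and triangles, replicates 1 to 3; solid lines and circles, replicates 4 to 7; numbers are left out where Trpm7 points crowd). Trpc6 is higher in calcium-high in 6 of 7 pairs, P2rx1_1 in 6, Cacnb2 in 7 and Trpm7 in 2.

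Trpm7 (chromosome 2, 126791565 to 126876230, minus strand) encodes a divalent cation channel fused to a protein kinase. In calcium-high libraries its level was 4.27 RPKM at the lowest, 5.22 at the median and 8.77 at the highest. In calcium-low libraries it was 3.89, 4.41 and 11.0 RPKM. The groups overlapped throughout, with means of 5.99 ± 1.88 and 6.79 ± 3.18 RPKM (SD, n = 7 each) and a log2 difference of -0.10 (95% interval -0.58 to 0.38, adjusted p = 0.998 in limma and 0.727 with the replicate block).

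What separated the libraries for Trpm7 was the library set. Replicates 1 to 3 held 6.84, 8.02 and 8.77 RPKM in calcium-high and 10.8, 8.36 and 11.0 RPKM in calcium-low. All 8 libraries of replicates 4 to 7 were lower, at 3.89 to 5.22 RPKM. The ratio of the set means was 2.01, and 10.5% of tested labels likewise had all of replicates 1 to 3 above all of replicates 4 to 7. Trpm7 thus lay above Orai2 in 6 of 6 libraries of the first set and in 0 of 8 of the second, and it was below P2rx1_1 in 8 of 8 libraries of the second.

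Trpv2 (chromosome 11, 62574486 to 62600515, plus strand), a calcium-permeable channel of the vanilloid family, went the other way between the sets. Calcium-high libraries had 3.54 RPKM at the lowest, 5.11 at the median and 6.48 at the highest, and calcium-low libraries 3.52, 4.89 and 7.14 RPKM. Group means were 4.76 ± 1.19 and 5.17 ± 1.33 RPKM (SD, n = 7 each). The log2 difference was -0.10 (95% interval -0.42 to 0.23, adjusted p = 0.993 in limma and 0.688 with the block), with Trpv2 higher in calcium-high in 3 of 7 pairs. All 6 libraries of replicates 1 to 3 were below all 8 of replicates 4 to 7, a ratio of 0.643 between the set means, as in 6.55% of tested labels.

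The 2 STIM sensors were unequal in level in every library. Stim1 (chromosome 7, 102267806 to 102437319, plus strand), the main sensor of a depleted store, was 4.86 to 6.84 RPKM in calcium-high with a median of 5.79, and 4.95 to 5.97 RPKM in calcium-low with a median of 5.41. It varied least of the 10 genes, with a coefficient of variation of 10.8% over the 14 libraries. Its group means were 5.91 ± 0.709 and 5.40 ± 0.394 RPKM (SD, n = 7 each), with 3 calcium-high libraries above all calcium-low ones and the rest overlapping. The log2 difference was 0.10 (95% interval -0.09 to 0.30, adjusted p = 0.974 in limma and 0.622 with the block).

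Stim2 (chromosome 5, 53998499 to 54121057, plus strand), which responds to smaller falls of the stored calcium than Stim1, was the lowest of the 10 in all 14 libraries. It ranged from 0.656 to 1.53 RPKM in calcium-high, with a median of 0.964, and from 0.843 to 1.53 RPKM in calcium-low, with a median of 0.997. The group means, 1.02 ± 0.261 and 1.05 ± 0.235 RPKM (SD, n = 7 each), differed by -0.02 on the log2 scale (95% interval -0.27 to 0.22, adjusted p = 0.998 in limma and 0.953 with the block). The ratio of Stim1 to Stim2 in RPKM was 6.10 ± 1.56 in calcium-high and 5.33 ± 1.07 in calcium-low, higher in calcium-high in 4 of 7 pairs, and it ran from 3.79 to 8.81 over all libraries.

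Of the ORAI pore subunits, Orai1 (chromosome 5, 123015074 to 123030456, plus strand) showed the smallest difference of the 10 genes. Its level was 3.06, 5.05 and 5.82 RPKM (lowest, median and highest) in calcium-high and 2.22, 5.06 and 5.37 RPKM in calcium-low. The means were 4.57 ± 1.07 and 4.56 ± 1.14 RPKM (SD, n = 7 each), and the log2 difference was 0.01 (95% interval -0.33 to 0.35, adjusted p = 0.999 in limma and 0.976 with the block). Its interval thus leaves room for a difference of that size in either direction. Like Trpv2, Orai1 was lower in all 6 libraries of replicates 1 to 3 than in all of replicates 4 to 7, with a ratio of 0.672 between the set means.

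Orai2 (chromosome 5, 136147459 to 136170713, minus strand) forms pores alone or together with Orai1. It stood at 4.85, 6.28 and 7.56 RPKM (lowest, median and highest) in calcium-high and at 3.63, 5.69 and 7.76 RPKM in calcium-low. The groups overlapped, although calcium-high was higher in 6 of 7 pairs, as for Trpc6. With means of 6.22 ± 0.938 and 5.60 ± 1.51 RPKM (SD, n = 7 each), the log2 difference was 0.15 (95% interval -0.15 to 0.45, adjusted p = 0.979 in limma and 0.555 with the block). In RPKM, Orai2 was 1.41 ± 0.309 times Orai1 in calcium-high and 1.25 ± 0.240 times in calcium-low.

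The ATP-gated channel P2rx1 (chromosome 11, 72999103 to 73015200, plus strand), best known from platelets, had the second largest difference. In calcium-high replicates 1 to 7 the label P2rx1_1 stood at 5.92, 4.64, 5.0, 8.39, 7.76, 10.7 and 9.75 RPKM. In calcium-low replicates 1 to 7 it stood at 3.53, 6.02, 3.84, 5.83, 7.69, 7.64 and 5.84 RPKM. All 4 calcium-high libraries of replicates 4 to 7 were above every calcium-low library, whereas those of replicates 1 to 3 lay inside the calcium-low range. The means were 7.44 ± 2.34 and 5.77 ± 1.63 RPKM (SD, n = 7 each), with calcium-high higher in 6 of 7 pairs.

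The log2 difference of P2rx1_1 was 0.31 (SE 0.190, 95% interval -0.09 to 0.71) and did not pass in limma without a block (adjusted p = 0.876), with the replicate block (adjusted p = 0.259) or in any of the 36 alternatives, over which the adjusted p in limma ran from 0.0654 to 1.0. The other label, P2rx1_2, did not show the difference. It had means of 3.93 ± 1.44 RPKM in calcium-high against 3.82 ± 0.766 in calcium-low (SD, n = 7 each) and a log2 difference of -0.02. The ratio of P2rx1_1 to P2rx1_2 ran from 0.920 to 3.44 over the libraries. Which annotated copy each label marks is not given in the sources used here, so the split of P2rx1 reads between them is uncertain. With both labels summed, the log2 difference was 0.19 (adjusted p = 0.979, limma).

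P2rx4 (chromosome 5, 122707544 to 122729738, plus strand), an ATP-gated channel also found in lysosomes, was 3.93, 6.39 and 8.07 RPKM (lowest, median and highest) in calcium-high and 3.60, 5.64 and 6.79 RPKM in calcium-low. The groups overlapped, and calcium-high was higher in 4 of 7 pairs. The means were 5.81 ± 1.62 and 5.62 ± 1.01 RPKM (SD, n = 7 each), with a log2 difference of 0.02 (95% interval -0.31 to 0.35, adjusted p = 0.999 in limma and 0.961 with the block). Without replicate 3 the calcium-low mean was 5.95 ± 0.519 RPKM (SD, n = 6). The calcium-high mean of 5.81 RPKM still held its own replicate 3, the lowest of that group at 3.93 RPKM, so these means are not on equal terms. By set, the difference was -0.25 in replicates 1 to 3 and 0.22 in replicates 4 to 7, neither of them called by limma (adjusted p = 0.532 and 0.163). The median of all tested labels moved the same way, at -0.20 and 0.11 in those fits.

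Cacnb2 (chromosome 2, 14603088 to 14987908, plus strand) was low but ordered the same way in every pair. Calcium-high replicates 1 to 7 had 2.52, 2.83, 1.56, 1.70, 2.31, 1.99 and 1.79 RPKM. Calcium-low replicates 1 to 7 had 2.05, 1.75, 1.36, 1.67, 1.45, 1.33 and 1.62 RPKM. The groups overlapped, with 3 calcium-high libraries above all calcium-low ones, and within each replicate number calcium-high was the higher, by a ratio of 1.02 to 1.62. All 7 pairs were higher in calcium-high for 2.49% of tested labels. The means were 2.10 ± 0.467 and 1.60 ± 0.252 RPKM (SD, n = 7 each). The log2 difference of 0.24 (SE 0.111) did not pass in limma without a block (adjusted p = 0.734) or with it (adjusted p = 0.257), and it passed in 1 of 36 alternatives, limma-voom with the block (adjusted p = 0.0487). Over the 36 the adjusted p ran up to 0.999.

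Over the set as a whole, limma called 0 of the 10 genes without the block, against 0% of the 9921 tested labels, and 0 of 10 with the block, against 0.917% (91 labels). At an unadjusted p under 0.05 these fits had 2 of 10 genes (669 labels, 6.74%) and 3 of 10 genes (1377 labels, 13.9%). Limma-voom called 1 of 10 genes, Trpc6, against 7.11% of tested labels, and with the block 2 of 10, Trpc6 and Cacnb2, against 8.45%. In replicates 4 to 7 alone limma called 1 of 10, Trpc6, against 8.14%, and in replicates 1 to 3 alone 0 of 10, against 0%. At an unadjusted p under 0.05 these sets had 5 of 10 genes (2566 labels, 25.9%) and 0 of 10 genes (1151 labels, 11.6%). Of the 10 log2 differences, 7 were positive, and their median was 0.06, beside -0.03 over all tested labels. In 0 of the 10 genes did the groups not overlap, against 0.141% of tested labels. The other fits in which Trpc6 was the called gene of the 10 had a background of 2.9% (block with median-of-ratios scaling), 1.02% (without calcium-high replicate 3), 1.2% (without both libraries numbered 3), 6.61% (block, replicates 4 to 7) and 3.04% (block, without pair 3).

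**Figure D4:**
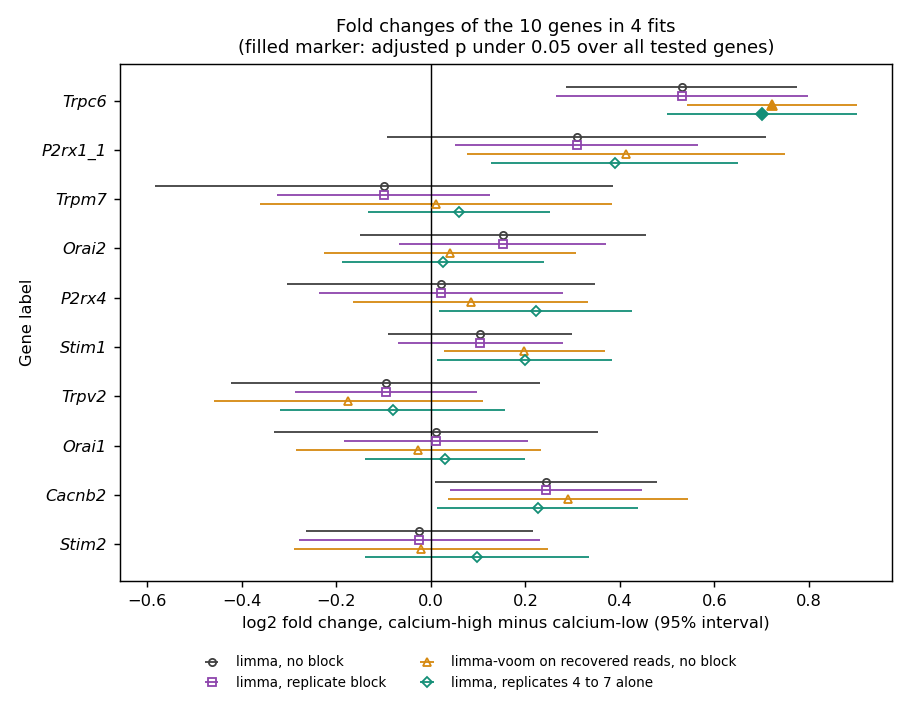
Log2 differences of the 10 genes (calcium-high minus calcium-low, with 95% intervals) in limma without a block, with the replicate block, in limma-voom and in replicates 4 to 7 alone; filled markers have an adjusted p under 0.05 over all tested labels. Trpc6 is the gene with filled markers, at 0.72 in limma-voom and 0.70 in replicates 4 to 7.

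Together the 10 genes summed to 55.0 ± 6.42 RPKM in calcium-high against 49.0 ± 2.36 in calcium-low (SD, n = 7 each), higher in calcium-high in 6 of 7 pairs. Trpc6 made up 20.4% ± 2.38 of that sum in calcium-high and 15.2% ± 2.56 in calcium-low. Relative to Trpm7, Trpc6 was higher in calcium-high in 7 of 7 pairs. Trpc6 had the largest log2 difference of the 10 (0.53) and Trpm7 the lowest (-0.10). Picking them by these same values favoured a high count, so no conclusion is drawn from it. In pair 3 both genes were lower in calcium-high, Trpc6 at 7.80 against 8.91 RPKM and Trpm7 at 8.77 against 11.0 RPKM. The share of all labels with such a ratio in 7 pairs was not computed. The ratio of Trpc6 to Trpm7 in RPKM was 2.06 ± 0.710 in calcium-high and 1.26 ± 0.435 in calcium-low.

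**Figure D5:**
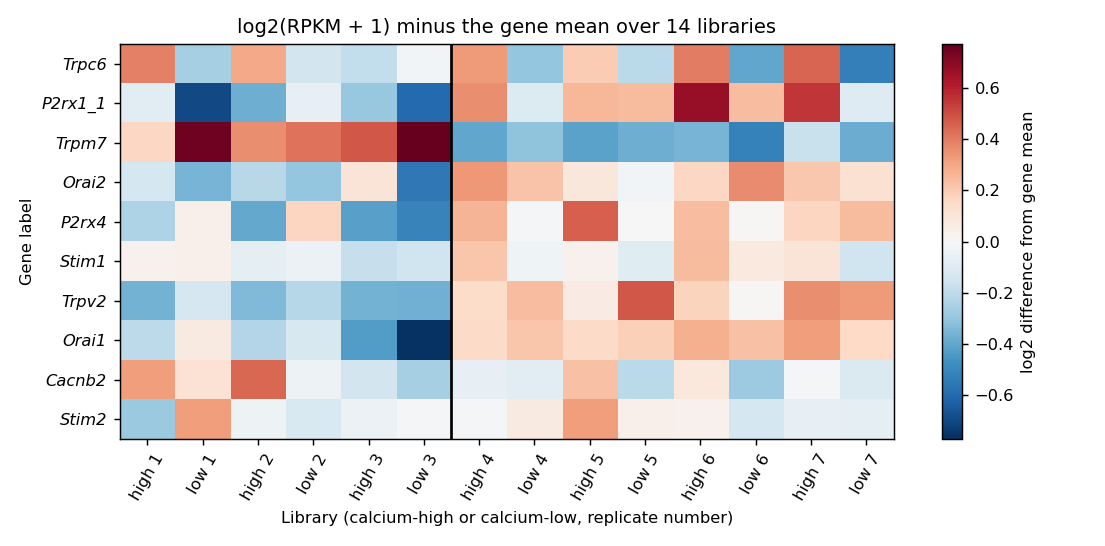
Levels of the 10 genes in each library relative to the gene's mean over the 14 libraries, on the log2(RPKM + 1) scale, with libraries ordered by replicate number and group. Trpm7 is above its mean and Trpv2 below its mean in replicates 1 to 3 of both groups, and Trpc6 alternates between the groups except in replicate 3.

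The tested genes most like each member over the 14 libraries were ranked by Pearson's r, given here as a description, since all libraries share the division into sets and groups. For Trpc6 these were Amotl2, a scaffold protein of cell junctions (r = 0.951), Vwf, which encodes von Willebrand factor (r = 0.944), and Ppp1r16b, a regulatory subunit of protein phosphatase 1 (r = 0.944). Vwf stood at a mean of 17.3 RPKM in calcium-high against 4.87 in calcium-low. Its log2 difference was 1.68 (adjusted p = 0.0504 in limma and 0.0337 with the block). It was not among the megakaryocyte and platelet markers summed above. For Trpm7 they were Rps6ka3 (r = 0.992), Pcm1_1 (r = 0.990) and Tceb1 (r = 0.985), and for Orai1 Dtx3 (r = 0.985), Adamts10 (r = 0.969) and Pik3c2b (r = 0.965).

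For P2rx1_1 the nearest patterns were those of Clcn2 (r = 0.951), Tmc6 (r = 0.948) and S1pr4 (r = 0.938). Those of P2rx4 were Dpp7 (r = 0.958), Slc12a7 (r = 0.938) and Nckipsd_1 (r = 0.929), and those of Trpv2 Dhx30 (r = 0.938), Zscan25 (r = 0.928) and Gmip (r = 0.926). Orai2 was nearest to St7 (r = 0.915), Abcc1 (r = 0.892) and Btbd6 (r = 0.887). Stim1 was nearest to Tusc2 (r = 0.915), Znfx1 (r = 0.878) and Prkar2a (r = 0.871), and Stim2 to Tmsb10 (r = 0.914), Polr2e (r = 0.909) and Efl1 (r = 0.891). Cacnb2 had the least close neighbours, Sdc4 (r = 0.858), Rbak (r = 0.849) and Lpp (r = 0.847). Between members, the highest values were Trpv2 with Orai1 (r = 0.824) and Orai1 with P2rx4 (r = 0.811). The lowest were Trpm7 with Orai2 (r = -0.853) and with P2rx1_1 (r = -0.816), whose means were higher in replicates 4 to 7 where that of Trpm7 was lower.

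Around Trpc6, Trpm7, Trpv2, the ORAI subunits and the P2X channels, 40 other plasma membrane channels listed as entry channels were examined. Of these, 5 were at 0 in all libraries and 6 were tested. Trpc1, of the same family as Trpc6, had a mean of 0.113 RPKM and Trpc7 one of 0.00515 RPKM, both far under Trpc6. Of the 6 tested, 5 had positive differences with a median of 0.10, and limma called 0 of them with or without the block. Tmem63b, at 2.50 RPKM in calcium-high against 1.65 in calcium-low, was called by limma-voom (adjusted p = 0.0104; 0.390 in limma and 0.111 with the block) and in 4 of 36 alternatives in all, over which the adjusted p ran from 0.0104 to 0.746.

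Cacnb2 had little voltage-gated company. Of 29 other voltage-gated channel subunits and beta-binding GTPases, only Gem and Rrad reached 1 RPKM, at 6.49 and 1.69 RPKM. Both are small GTPases that bind the beta subunits. Over all 14 libraries limma called neither, with or without the block. In replicates 4 to 7 alone limma called Gem, lower in calcium-high by a log2 difference of -0.72 (adjusted p = 0.0111, and 0.00601 with the block). Those fits called 8.14% and 6.61% of tested labels, and Gem was called in these 2 of 36 alternatives. No alpha1 pore subunit reached 1 RPKM. The highest were Cacna1a at 0.476 RPKM and Cacna1d at 0.307 RPKM, below the 1.85 RPKM of Cacnb2, and the beta subunit Cacnb1 stood at 0.880 RPKM.

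Beside the STIM and ORAI genes, 15 of 18 regulators of store-operated entry were tested, 9 with positive differences and a median of 0.06. Limma called 0 of 15 without the block and 1 of 15 with it, against 0% and 0.917% of tested labels. That gene was Cracr2b, which encodes an EF-hand protein related to the ORAI1 regulator CRACR2A. It stood at 2.21, 3.30, 1.04, 1.93, 2.32, 3.06 and 3.17 RPKM in calcium-high replicates 1 to 7 and at 1.61, 2.0, 0.486, 0.587, 1.17, 1.38 and 0.392 RPKM in calcium-low. The groups overlapped, and calcium-high was higher in 7 of 7 pairs. The log2 difference was 0.73 (SE 0.199, adjusted p = 0.254 in limma and 0.0364 with the block). Cracr2b was called in 10 of 36 alternatives (adjusted p 0.00144 to 0.596), but in 1 of the 7 block fits that leave out a pair, the one without pair 3. Limma-voom called Cracr2b and, in the opposite direction, Itpr2_1, a label of an inositol trisphosphate receptor of the store (1.72 RPKM in calcium-high against 2.22 in calcium-low, adjusted p = 0.0138, higher in calcium-high in 1 of 7 pairs). With the block limma-voom called Cracr2b, Asph (adjusted p = 0.0412) and Plcb4 (adjusted p = 0.0465), all higher in calcium-high, and not Itpr2_1 (adjusted p = 0.0938). Phospholipases and a chaperone led the list in level, with Plcg2 at 27.5, Plcb2 at 21.6 and Pdia3 at 18.1 RPKM, and Saraf, an inhibitor of store-operated entry, stood at 17.8 RPKM.

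Of 15 purinergic partners of the P2X channels, 7 were tested, 5 with positive differences and a median of 0.17, and limma called 0 with or without the block. The highest were the UDP-sugar receptor P2ry14 at 6.70 RPKM, the ATP release channel Panx1 at 3.81 RPKM and the adenosine receptor Adora2a at 2.43 RPKM. P2ry13, an ADP receptor, was called by limma-voom (adjusted p = 0.0411; 0.542 in limma and 0.102 with the block) and in 4 of 36 alternatives in all (adjusted p 0.0333 to 0.983), with 2.54 RPKM in calcium-high against 1.70 in calcium-low.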

How the data were processed

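The authors deposited 1 file of RPKM for each library; the header names no unit, and RPKM was read from the values. GRCm38, mm10 and edgeR are named in the submitters' processing notes, and for the aligner and counter the sources used here give no name. Each file listed 48737 labels, of which 23 had become serial numbers in replicates 4 to 7 and were left out. Coordinates are from the GENCODE annotation of GRCm38. Genes on the opposite strand overlap exons of Trpc6, Orai1 and Cacnb2; whether counting used strand is not given, so their reads cannot be told apart, and those genes were not listed above 0.

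Labels with a mean of at least 1 RPKM were tested on log2(RPKM + 1) with limma 3.58.1 (R 4.3.3, mean-variance trend, Benjamini-Hochberg over 9921 labels, threshold 0.05). The pseudocount of 1 shrinks differences of low genes such as Stim2. Fold changes are on that scale. Python 3.11.15 with pandas 2.3.3, numpy 2.4.6, scipy 1.17.1 and matplotlib 3.10.9 made the summaries and figures. The values of all 9921 tested labels were whole multiples of a step within 0.02 reads, so whole reads were recovered and fitted with limma-voom as an alternative. Scripts were tested on simulated data.

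Same-numbered libraries deviated together (r = 0.384 to 0.715 in all 7 pairs, each over the 0.1 set as the rule), so the replicate number was also fitted as a block. Libraries with other numbers of the same set were correlated as well, at 0.138 to 0.678 for replicates 1 to 3 and 0.274 to 0.598 for replicates 4 to 7, and the same-numbered library was the best partner for 5 of 14 libraries, so these r do not separate the number from the set. The 10 genes, the lists and the tests were chosen with earlier results of these data known. Named were all members, the 3 tested genes with the highest r to each, and in other lists the genes called by limma and the 3 highest in mean; Tmem63b, P2ry13, Itpr2_1, Asph, Plcb4, Saraf, Nkg7, Cd3d and the genes under 1 RPKM were added after their values were seen. Alternatives were the block, median-of-ratios scaling, pseudocounts of 0.1 and 5, no filter, summed label copies, each library set alone and leaving out libraries. No sequences were used.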

Additional observations from a re-analysis of the deposited data

Results flagged for a closer look

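In 22 groups of 7 libraries, the gap of the highest or lowest library to its nearest neighbour was compared with the group's range by Dixon's criterion, which chance passes in about 1 group in 20. P2rx4 had its lowest calcium-low value in replicate 3, at 3.60 RPKM with the next library at 5.55 RPKM, a share of 0.610. That library also held the high neutrophil, cycling and erythroid markers, whose part in the value was not tested. Stim2 had its highest calcium-low value in replicate 1, at 1.53 RPKM with the next at 1.12 RPKM, a share of 0.592.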

How the results depend on the processing

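Over 36 alternatives, Trpc6, P2rx1_1, Orai2 and Cacnb2 kept a positive difference and Trpv2 a negative one in all. With the replicate block the tested labels called went from 0 to 91 (48 higher, 43 lower), also with label copies summed, and the other pathway genes called from 0 to 1 in both fits. With block and median-of-ratios scaling the counts were 288 labels (216 higher, 72 lower), 1 member and 2 other genes, and 4 labels with that scaling alone. Limma-voom gave 705 labels, 1 member and 4 others, and with the block 838, 2 and 5. Replicates 4 to 7 alone gave 808, 1 and 5, with the block 656, 1 and 4. Replicates 1 to 3 alone with the block gave 1 label, as did no filter. Without both libraries numbered 3 there were 119 labels, 1 member and 1 other gene. Leaving out single libraries gave 0 to 101 labels, 0 to 1 members and 0 to 1 other genes, the highest count without calcium-high replicate 3. Leaving out pairs 1 to 7 in turn under the block gave 8, 3, 302, 0, 12, 2 and 0 labels; without pair 3, 1 member and 1 other gene were called.

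Of 10 positions in the level order, 4 were as reported by the median, 6 in calcium-high alone, 6 in calcium-low alone, 8 with summed copies (P2rx1 then first), 8 without calcium-low replicate 3, 5 in replicates 1 to 3 and 4 in replicates 4 to 7. The sign of small differences turned, and the cause was not tested. The median of all tested labels was itself -0.20 in replicates 1 to 3 alone and 0.11 in replicates 4 to 7 alone. Trpm7 was 0.012 in limma-voom, 0.060 in replicates 4 to 7 (with or without the block) and -0.20 to 0.020 with single libraries left out. Orai1 was -0.026 and -0.0039 in limma-voom without and with the block, -0.014 in replicates 1 to 3, -0.043 without both libraries or pair 3, -0.016 under the block without pair 7 and -0.12 to 0.083 with single libraries left out. Stim1 was -0.021 in replicates 1 to 3. Stim2 was 0.030 in limma-voom with the block, 0.097 in replicates 4 to 7, 0.073 under the block without pair 1 and -0.080 to 0.027 with single libraries left out. P2rx4 was -0.25 in replicates 1 to 3, -0.021, -0.053 and -0.013 under the block without pair 4, 5 or 6, and -0.063 to 0.093 with single libraries left out.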
